A study of Mus musculus with 24 samples.

Results

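The genes described here encode the complement and coagulation proteins that the liver makes for the blood, with the inhibitors and fibrinolytic proteins that go with them. They were chosen by symbol: of 35 named genes, 30 had a probe set annotated to them alone, against 18820 gene symbols measured in all. Another 3 members lay on probe sets shared with another gene (Masp2 with Tardbp, C4b with C4a, Klkb1 with Cyp4v3), and C3 and Cpb2 had no annotated probe set; these 5 were not analysed here. The 30 measured members were followed in 24 whole-liver arrays from male C57BL/6 mice, 3 arrays in each of 8 groups. Control mice carried floxed JNK1 alleles (JNK1f/f) without Cre and had either a sham operation or bile duct ligation, in which the common bile duct is tied off so that bile backs up into the liver. Mice lacking JNK1 in every cell (JNK1-/-) and mice in which Cre under the albumin promoter removed JNK1 from hepatocytes (JNK1Δhepa) had the ligation only, so that neither mutant has sham arrays of its own. Livers were taken after 48 h, at 8 weeks of age, or after 28 d, at 12 weeks, so time after surgery and age cannot be told apart. The labels give 9 to 10 mice per group and do not say how the 3 arrayed livers were chosen, nor whether one array stands for 1 mouse; p-values then measure the spread between these arrays only.

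Complement is a cascade of plasma proteins that tags and kills microbes. Mannose-binding lectins recognise sugars and act through MASP proteases; C3 and factor B drive amplification; C5 (encoded by Hc in the mouse), C6, C7, C8 and C9 assemble into the pore of the membrane attack complex. Coagulation is another protease cascade, which ends when thrombin turns fibrinogen into fibrin. Hepatocytes make most of both systems, and several coagulation proteins need a vitamin K-dependent carboxylation that fails when bile no longer reaches the gut. Fibrinogen and several complement proteins are acute phase proteins, whose genes are switched on by IL-6 through STAT3 together with C/EBP factors.

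All values are log2 array intensities, so that a difference of 1 is a 2-fold difference in signal. A gene was called changed at an adjusted p under 0.05 in a limma model of all 24 arrays, with Benjamini-Hochberg adjustment over all 18820 symbols, and errors of differences are standard errors of that model. The members' probe sets were bright: by mean signal all 30 lay above the median symbol, the lowest, Mbl2, at percentile 83.7. Whole liver holds many cell types, so fewer cells of a type and less RNA per cell cannot be told apart in any result that follows.

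The mutation was checked first through Mapk8, the gene of JNK1. After 28 d Mapk8 read 7.67, 7.41 and 7.44 in ligated controls, 6.11, 5.18 and 5.61 in JNK1-/- mice, and 7.67, 6.90 and 6.97 in JNK1Δhepa mice. After 48 h it read 7.47, 7.49 and 7.37 in ligated controls, 5.33, 6.17 and 6.09 in JNK1-/- mice and 6.77, 6.81 and 6.76 in JNK1Δhepa mice. Every JNK1-/- array was below every ligated control array of its time, but the array labelled JNK1Δhepa 28 d replicate 1 was as high as the controls. The arrays labelled control sham read 7.52, 7.52 and 7.54 at 28 d but 6.93, 6.67 and 6.86 at 48 h, where they overlapped the JNK1Δhepa range. Whether the probe set covers the deleted exons is not given in the sources used here, so the labels of these 4 arrays stand as deposited. The sham arrays of 48 h enter the ligation effect at 48 h, its difference between the times and the comparison of the sham groups. JNK1Δhepa replicate 1 enters every JNK1Δhepa comparison at 28 d and the change of the JNK1Δhepa effect with time.

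In the terminal complement genes 2 arrays of 28 d stood apart, ligated control replicate 1 and JNK1Δhepa replicate 1. Relative to sham, the mean of these 6 genes was -2.32 and -2.17 on them, against -0.84 and -0.78 on the other ligated control arrays and -1.22 and -1.15 on the other JNK1Δhepa arrays. By counts over all members they did not stand apart: each was the lowest array of its group for 19 of 30, and in each of the 8 groups 1 array was lowest for 16 to 21 members. Over the 18790 other genes they correlated with each other at 0.993. JNK1Δhepa replicate 1 correlated as closely with its own group, at 0.993 and 0.992, while ligated control replicate 1 correlated with replicates 2 and 3 of its group at 0.984 and 0.969. Ligated control replicate 3 was itself the least alike of the ligated arrays of 28 d, at 0.969 to 0.987 with the 8 others. Values without ligated control replicate 1, a choice made after seeing the data, are given beside the 28 d results of the members called.

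After 28 d of ligation the control livers read far lower for the genes of the membrane attack complex. All 6 measured terminal complement genes fell, 5 of them by 2-fold or more, together with both mannose-binding lectins and 11 of 19 coagulation and fibrinolysis genes. Without ligated control replicate 1, 4 of the 6 passed and 2, C8b and C6, had fallen by 2-fold or more. Pros1, the gene of the anticoagulant protein S, rose 2.52-fold and was the only member that did. The 3 fibrinogen chains did not pass the test. In all, 1 member rose and 19 of 30 fell, where 11.7% of all symbols rose and 11.5% fell (23.2% in either direction); the median member differed by -0.35 and the median symbol by -0.03. Without ligated control replicate 1, 1 member rose and 14 fell, all of them among those 20, with a median of -0.30 over the 30 and 21.3% of all symbols called. The sham and ligated arrays did not overlap for 22 of 30 members, as for 33.1% of all symbols. Centring each array on its own median moved the median symbol to -0.12 and the share of rises among all calls from 50.4% to 31.0%, with 1 member higher and 20 lower.

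**Figure D1:**
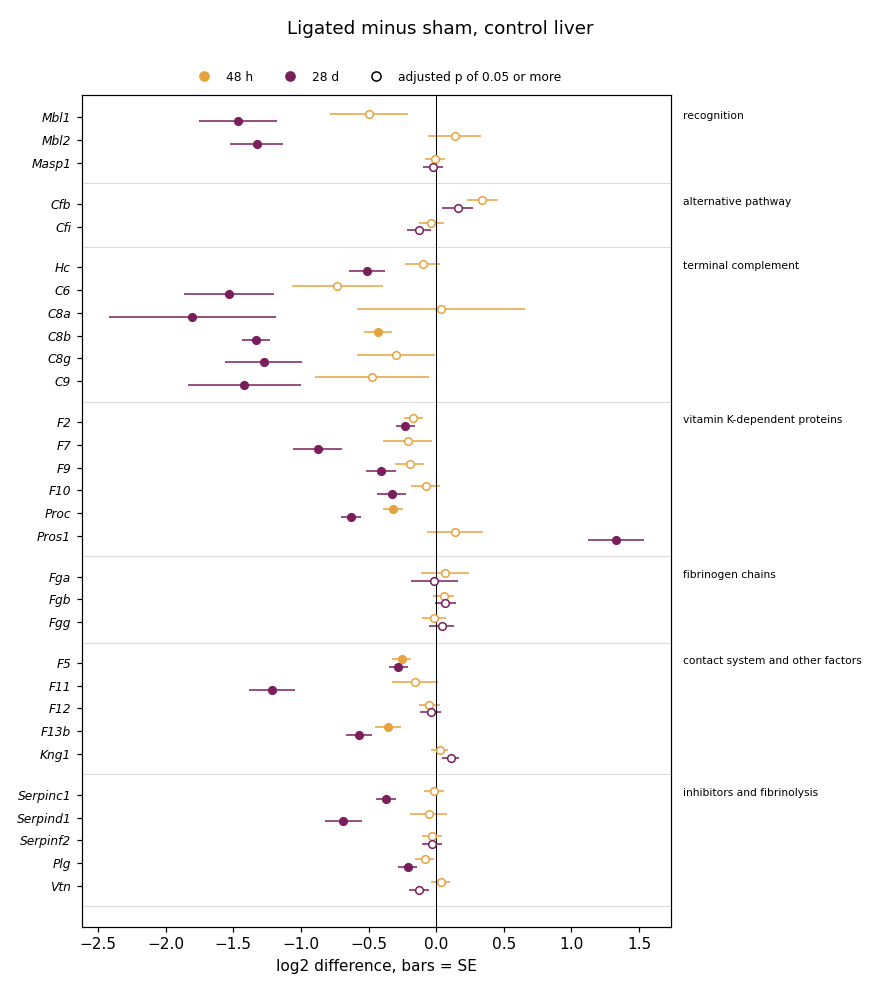
Ligated minus sham control difference (log2, horizontal axis) for each of the 30 measured members (vertical axis, grouped by role), at 48 h and 28 d after surgery; points are fitted differences, bars are standard errors, and filled points passed the adjusted p of 0.05. C8a, C6, Mbl1, C9, C8b, Mbl2, C8g and F11 lie furthest left at 28 d, from -1.80 to -1.21, Pros1 lies to the right at 1.33, and the fibrinogen chains lie between -0.01 and 0.07.

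Of the terminal complement genes, C8b changed most evenly. C8b, the beta chain of C8, which docks onto the growing complex, read 12.32, 12.40 and 12.25 in sham controls and 10.85, 11.12 and 11.01 in ligated controls at 28 d. The groups were more than a log2 unit apart at their nearest arrays. The difference was -1.33 ± 0.10 (adjusted p = 4.52e-08), or 2.52-fold, and -1.26 without ligated replicate 1. C8g, the gamma chain, read 12.20, 12.11 and 12.17 against 9.86, 11.41 and 11.38, a difference of -1.28 ± 0.29 (adjusted p = 0.00288). The groups did not overlap, and ligated replicate 1 was the lowest array by a wide margin. Without it C8g differed by -0.76 (adjusted p = 0.00745).

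C8a, the alpha chain of C8, which inserts into the membrane, had the largest change and the largest spread. It read 11.70, 11.97 and 11.74 in sham controls and 8.03, 10.79 and 11.18 in ligated controls, a difference of -1.80 ± 0.62 (adjusted p = 0.0409). All 3 ligated arrays were lower than all sham arrays, but replicate 1 was more than 2 log2 units below the other two. C9, which polymerises to form the wall of the pore, read 12.07, 12.30 and 12.05 against 9.14, 11.42 and 11.60. Its difference was -1.42 ± 0.42 (adjusted p = 0.0186), with the same array lowest. Without ligated control replicate 1, C8a differed by -0.82 (adjusted p = 0.258) and C9 by -0.63 (adjusted p = 0.0842), neither of which passed. With JNK1Δhepa replicate 1 left out as well, both differences stayed the same, since that array enters this comparison only through the shared spread. The standard errors fell from 0.49 to 0.20 for C8a and from 0.25 to 0.15 for C9. Both then passed (adjusted p = 0.00729 and 0.00474), but the 2 arrays were left out because they stood apart in these genes. C8a also missed the threshold without any 1 of the sham arrays (adjusted p of 0.0809, 0.103 and 0.0844 without replicates 1, 2 and 3), as did C9 without sham replicate 2 (adjusted p = 0.0594).

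C6, which binds C5b and carries the complex to C7, read 10.89, 11.71 and 11.13 in sham controls and 8.75, 10.21 and 10.17 in ligated controls. The difference was -1.53 ± 0.33 (adjusted p = 0.00228), and it was -1.05 (adjusted p = 0.0136) without ligated replicate 1. Hc fell least of this group, by 0.51 ± 0.13 (adjusted p = 0.00734), from 12.20, 12.32 and 12.19 to 11.37, 11.91 and 11.89. Without ligated replicate 1 Hc differed by -0.33 (adjusted p = 0.0490).

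**Figure D2:**
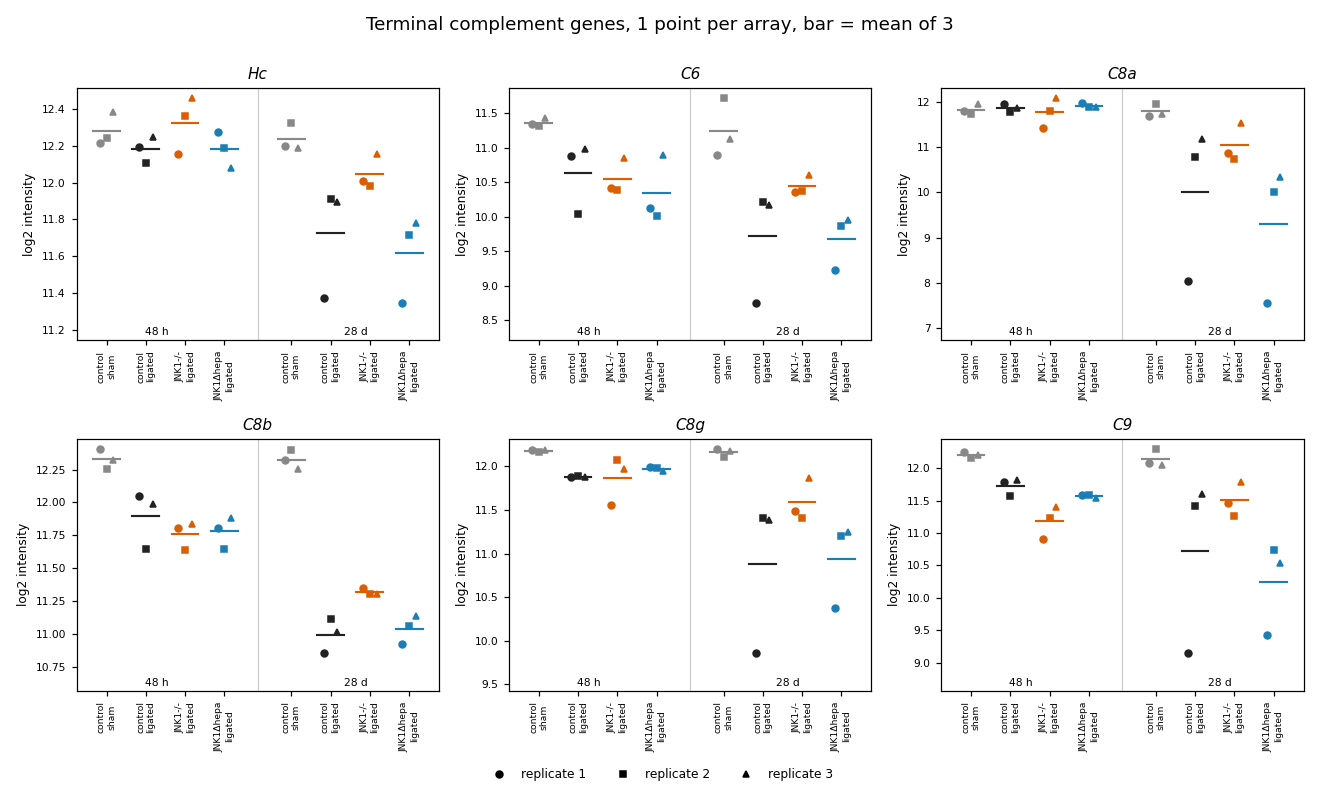
Log2 intensity (vertical axis) of the 6 terminal complement genes on each of the 24 arrays (points, shaped by replicate number), by genotype and surgery, with bars at the means of 3. At 28 d the sham arrays lie above all ligated arrays in each gene, and the circles of replicate 1 lie lowest among ligated control and JNK1Δhepa arrays at 28 d, as in C8a at 8.03 and 7.56.

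The mannose-binding lectins fell with the pore genes. Mbl1, which encodes mannose-binding lectin A, read 10.65, 10.64 and 10.55 in sham controls and 8.17, 9.67 and 9.59 in ligated controls at 28 d. The groups did not overlap, and the difference was -1.46 ± 0.29 (adjusted p = 0.000911), or -0.98 (adjusted p = 0.00224) without ligated replicate 1. Mbl2, which encodes mannose-binding lectin C, read 9.32, 9.43 and 9.52 against 7.76, 8.22 and 8.31, also without overlap, a difference of -1.33 ± 0.20 (adjusted p = 6.92e-05), or -1.16 without that array. Masp1, the gene of a protease that circulates bound to these lectins, read between 11.07 and 11.29 in sham controls and between 11.09 and 11.25 in ligated controls, and differed by -0.03 ± 0.08. Of the alternative pathway, Cfb, the gene of factor B, differed by 0.16 ± 0.11 and Cfi, the gene of the C3b-cleaving factor I, by -0.13 ± 0.09. Neither of them passed, nor did Masp1, so that 8 of 11 measured complement members fell at 28 d and 3 did not pass.

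The vitamin K-dependent group split. Pros1 read 9.00, 9.20 and 9.01 in sham controls and 10.998, 10.24 and 9.97 in ligated controls. Every ligated array was above every sham array, with replicate 1 highest, and the difference was 1.33 ± 0.21 (adjusted p = 0.000107), or 1.03 (adjusted p = 0.000377) without that array. The other 5 measured members of the group fell. F7, which starts coagulation together with tissue factor, fell by 0.88 ± 0.18 (adjusted p = 0.00138), from between 9.93 and 10.16 to between 9.06 and 9.49. Proc, the gene of the anticoagulant protein C, fell by 0.63 ± 0.07 (adjusted p = 4.8e-06), from 11.44, 11.45 and 11.43 to 10.69, 10.92 and 10.83. F9, F10 and F2, the genes of factors IX and X and of prothrombin, fell by 0.41, 0.33 and 0.23. Without ligated replicate 1 F7 differed by -0.80, Proc by -0.57 and F9 by -0.34, and all 3 passed. The ligated and sham arrays of F10 overlapped, and without ligated replicate 1 F10 differed by -0.28 (adjusted p = 0.104) and F2 by -0.18 (adjusted p = 0.0983). Neither passed without ligated replicate 3 or sham replicate 3 either (adjusted p for F10 of 0.148 and 0.127, for F2 of 0.0577 and 0.0780), F10 not without sham replicate 1 (0.0725), and F2 not without sham replicate 2 (0.0503).

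Of the contact system and other factors, F11, the gene of the contact protease factor XI, read 10.05, 10.02 and 9.75 in sham controls and 8.20, 9.09 and 8.89 in ligated controls. The groups lay apart, and the difference was -1.21 ± 0.17 (adjusted p = 4.41e-05). F13b, the carrier subunit of the fibrin-crosslinking factor XIII, fell by 0.57 ± 0.10 (adjusted p = 0.000255), and F5, the cofactor of factor X, by 0.28 ± 0.07 (adjusted p = 0.00663). Without ligated replicate 1 F11 differed by -0.95, F13b by -0.62 and F5 by -0.22, and all 3 passed. F12, which starts the contact pathway, and Kng1, the gene of its cofactor kininogen, differed by -0.04 ± 0.08 and 0.11 ± 0.06 and did not pass. Kng1 has a close copy, Kng2, and array probes may not separate them.

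Of the 5 measured inhibitors and fibrinolytic proteins 3 fell. Serpind1, the gene of heparin cofactor II, read 12.22, 12.20 and 12.15 in sham controls and 11.16, 11.51 and 11.84 in ligated controls, a difference of -0.69 ± 0.14 (adjusted p = 0.001). Serpinc1, the gene of antithrombin, fell by 0.37 ± 0.07 (adjusted p = 0.00116). Without ligated replicate 1 these differences were -0.52 and -0.31, and both passed. Plg, the gene of plasminogen, fell by 0.21 ± 0.07 (adjusted p = 0.0392), and it missed the threshold when ligated replicate 1 or 3 or any 1 of the sham arrays was left out (adjusted p of 0.0505 and 0.179, and from 0.0653 to 0.111). Serpinf2, the gene of the plasmin inhibitor, and Vtn, the gene of vitronectin, which holds the terminal complement complex in solution, differed by -0.03 ± 0.07 and -0.13 ± 0.07 and did not pass.

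None of the fibrinogen chains passed the test, and their intervals were narrow for Fgb and Fgg. Fgg, the gamma chain, read 12.95, 13.02 and 12.98 in sham controls and 13.05, 13.07 and 12.96 in ligated controls at 28 d, with overlapping groups. The difference was 0.04 with a 95% confidence interval from -0.15 to 0.23. Fgb, the beta chain, differed by 0.07 (from -0.10 to 0.23) and Fga, the alpha chain, by -0.01 (from -0.38 to 0.35). A fall as large as that of C8b lies outside all 3 intervals. Fga had a second, dimmer probe set, which differed by -0.04. These probe sets are among the brightest of the array (Fgg read up to 13.33, where the highest value of any symbol was 13.93).

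Promoter sequences of 250 bases before the annotated start are shown for 3 terminal complement genes, for Pros1 and for the fibrinogen chains, because these are genes that fell, rose and did not pass the test. They are from RefSeq on mouse build GRCm38.p6, 5′ to 3′ on the strand of the gene, and 28 of the 35 members have an entry in the table used (C4b, Cfb, Cfi, Kng1, Masp1, Plg and Proc have none). Capitals mark matches on either strand to 3 motifs: TTGCNNAA for C/EBP factors, GTTAAT for a half-site of HNF1, a hepatocyte factor, and the palindrome TTCNNNGAA for STAT proteins. C8a is at chr4:104876399-104876648 on the minus strand, C8b at chr4:104766067-104766316 on the plus strand, C9 at chr15:6445096-6445345 on the plus strand and Pros1 at chr16:62854057-62854306 on the plus strand. Fga is at chr3:83025903-83026152 on the plus strand, Fgb at chr3:83049864-83050113 on the minus strand and Fgg at chr3:83007474-83007723 on the plus strand.
C8a: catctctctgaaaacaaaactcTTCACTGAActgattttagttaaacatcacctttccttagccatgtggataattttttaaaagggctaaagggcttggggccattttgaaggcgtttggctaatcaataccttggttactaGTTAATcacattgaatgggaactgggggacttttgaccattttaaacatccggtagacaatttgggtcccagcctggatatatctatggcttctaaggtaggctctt
C8b: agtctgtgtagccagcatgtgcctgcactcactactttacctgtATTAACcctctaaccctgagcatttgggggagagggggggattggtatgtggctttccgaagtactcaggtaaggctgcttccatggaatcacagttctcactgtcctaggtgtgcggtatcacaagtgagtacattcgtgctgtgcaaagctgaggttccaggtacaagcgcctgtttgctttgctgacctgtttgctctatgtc
C9: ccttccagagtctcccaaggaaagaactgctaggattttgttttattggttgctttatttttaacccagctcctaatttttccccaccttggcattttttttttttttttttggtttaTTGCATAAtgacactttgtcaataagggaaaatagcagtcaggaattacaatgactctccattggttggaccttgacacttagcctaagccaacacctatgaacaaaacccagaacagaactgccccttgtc
Pros1: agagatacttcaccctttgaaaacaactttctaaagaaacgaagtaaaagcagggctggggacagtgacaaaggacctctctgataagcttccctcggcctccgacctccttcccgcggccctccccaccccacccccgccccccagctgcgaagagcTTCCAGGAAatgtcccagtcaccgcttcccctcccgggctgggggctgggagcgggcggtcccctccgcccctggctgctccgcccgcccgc
Fga: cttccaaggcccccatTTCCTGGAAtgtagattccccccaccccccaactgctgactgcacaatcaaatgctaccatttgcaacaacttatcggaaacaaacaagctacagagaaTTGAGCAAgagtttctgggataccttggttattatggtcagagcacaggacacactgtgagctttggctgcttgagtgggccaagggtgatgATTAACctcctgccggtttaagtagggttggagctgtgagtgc
Fgb: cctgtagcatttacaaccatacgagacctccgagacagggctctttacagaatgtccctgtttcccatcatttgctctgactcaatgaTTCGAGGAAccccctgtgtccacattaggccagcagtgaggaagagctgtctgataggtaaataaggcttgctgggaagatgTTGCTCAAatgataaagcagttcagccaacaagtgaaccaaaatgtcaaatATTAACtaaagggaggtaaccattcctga
Fgg: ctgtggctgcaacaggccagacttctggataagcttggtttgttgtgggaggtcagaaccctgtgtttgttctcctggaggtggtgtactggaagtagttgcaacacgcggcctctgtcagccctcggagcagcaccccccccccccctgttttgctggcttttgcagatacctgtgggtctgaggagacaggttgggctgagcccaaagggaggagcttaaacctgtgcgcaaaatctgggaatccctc

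Fga and Fgb each held all 3 motifs, with the HNF1 half-site nearest the start (43 and 29 bases before it), then C/EBP (135 and 80) and STAT (234 and 162), and no 2 matches overlapped. Fgg held none of these letters in its window. C8a held the HNF1 half-site (107) and the STAT palindrome (228), C8b the half-site alone (206), C9 the C/EBP motif alone (132) and Pros1 the STAT palindrome alone (92). Over the 28 members with an entry, 7 held the C/EBP motif, 7 the HNF1 half-site and 6 the STAT palindrome, where 9.56%, 6.43% and 7.02% of 32851 promoters of the same length did. A match describes the letters only and does not show that a factor binds there.

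At 48 h fewer members were called than at 28 d. Against the arrays labelled control sham at 48 h, 4 of 30 members fell and none rose, where 3.83% of all symbols fell and 5.61% rose (9.43% in all). The median member differed by -0.07 and the median symbol by -0.03. Relative to sham, the mean of the 6 terminal complement genes was -0.53 to -0.23 on the ligated arrays and -0.05 to 0.05 on the sham arrays. The groups did not overlap for 13 members, as for 32.9% of all symbols. C8b read 12.41, 12.25 and 12.32 in sham and 12.05, 11.65 and 11.99 in ligated controls, apart from each other, a difference of -0.43 ± 0.10 (adjusted p = 0.0108). Proc read 11.45, 11.46 and 11.54 against 11.24, 11.08 and 11.16, a difference of -0.32 ± 0.07 (adjusted p = 0.00733). F13b fell by 0.36 ± 0.10 (adjusted p = 0.0219), from 10.38, 10.17 and 10.36 to 10.10, 9.76 and 9.97. F5 fell by 0.25 ± 0.07 (adjusted p = 0.0269), from 11.59, 11.48 and 11.67 to 11.35, 11.27 and 11.35. In C8b, Proc, F13b and F5 every ligated array was below every sham array. With the sham arrays of 28 d in place of those of 48 h, C8b, Proc and F13b still fell, F5 did not pass, and 5 members were called.

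The calls at 48 h other than Proc depended on single arrays. C8b did not pass without ligated replicate 2 (-0.31, adjusted p = 0.0766) or sham replicate 1 (-0.39, adjusted p = 0.0542). F13b did not pass without ligated replicate 2 or 3 or sham replicate 1 or 3 (adjusted p from 0.0530 to 0.128), and F5 not without any ligated array or sham replicate 1 or 3 (adjusted p from 0.0501 to 0.126). Proc passed without each array in turn, but not with quantile normalization (limma adjusted p = 0.0520). Pore and lectin genes other than C8b did not pass at 48 h in the model of all arrays: C6 differed by -0.73 ± 0.33, Mbl1 by -0.50 ± 0.29, C9 by -0.48 ± 0.42, C8g by -0.30 ± 0.29, Mbl2 by 0.14 ± 0.20 and C8a by 0.04 ± 0.62. Those errors pool the spread of all 8 groups. For C8a the standard deviation was 1.72 in ligated control and 1.52 in JNK1Δhepa arrays of 28 d. It was 0.09 in ligated and 0.11 in sham controls of 48 h. In a fit to only the arrays compared, Mbl1, C8g and C9 passed and F5 and F13b did not. Array weights added C6 and Cfb to the calls. Cfb, an acute phase gene, differed by 0.34 ± 0.11 (adjusted p = 0.0675). The fibrinogen chains differed by 0.06 (Fga), 0.06 (Fgb) and -0.01 (Fgg).

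At both times 4 members were called, at 28 d alone 16 and at neither 10, and an interaction term compared the effects of the 2 times. For 4 of 30 members the ligation effect differed between 48 h and 28 d, where 1.3% of all symbols did (0.707% upward and 0.59% downward); centring the arrays moved the share of positive values among all such calls from 54.5% to 32.8%, with Pros1 no longer called. Mbl2 (-1.46 ± 0.28, adjusted p = 0.0118), F11 (-1.06 ± 0.24, adjusted p = 0.0382) and C8b (-0.90 ± 0.15, adjusted p = 0.00381) were lower at 28 d relative to 48 h, and Pros1 was higher (1.19 ± 0.29, adjusted p = 0.0475). Mbl2 showed the change of course most plainly. It read 9.02, 8.92 and 9.27 in sham and 9.37, 8.96 and 9.30 in ligated controls at 48 h, which overlapped, before the separate values at 28 d. Pros1 read 9.25, 9.20 and 9.25 in sham and 9.37, 9.24 and 9.50 in ligated controls at 48 h.

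Mbl2 and C8b passed this interaction test without each array in turn. Pros1 missed the threshold without ligated control replicate 1 at 28 d (0.90, adjusted p = 0.0834) and F11 likewise (-0.79, adjusted p = 0.0509). Pros1 also missed it without any 1 sham array of either time or any 1 ligated control array of 48 h. The same held for F11, except without sham replicate 3 of 28 d. With 1 array left out the values ranged from 0.90 to 1.41 for Pros1 and from -1.24 to -0.79 for F11. C8a, with -1.84, had a larger fitted interaction than any of these and did not pass. Between the sham groups themselves, 28 d minus 48 h, no member was called by limma (0 at an unadjusted p under 0.05, as 7.58% of all symbols were; 0.133% of all symbols were called), and the largest difference was 0.35, in Mbl2.

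**Figure D3:**
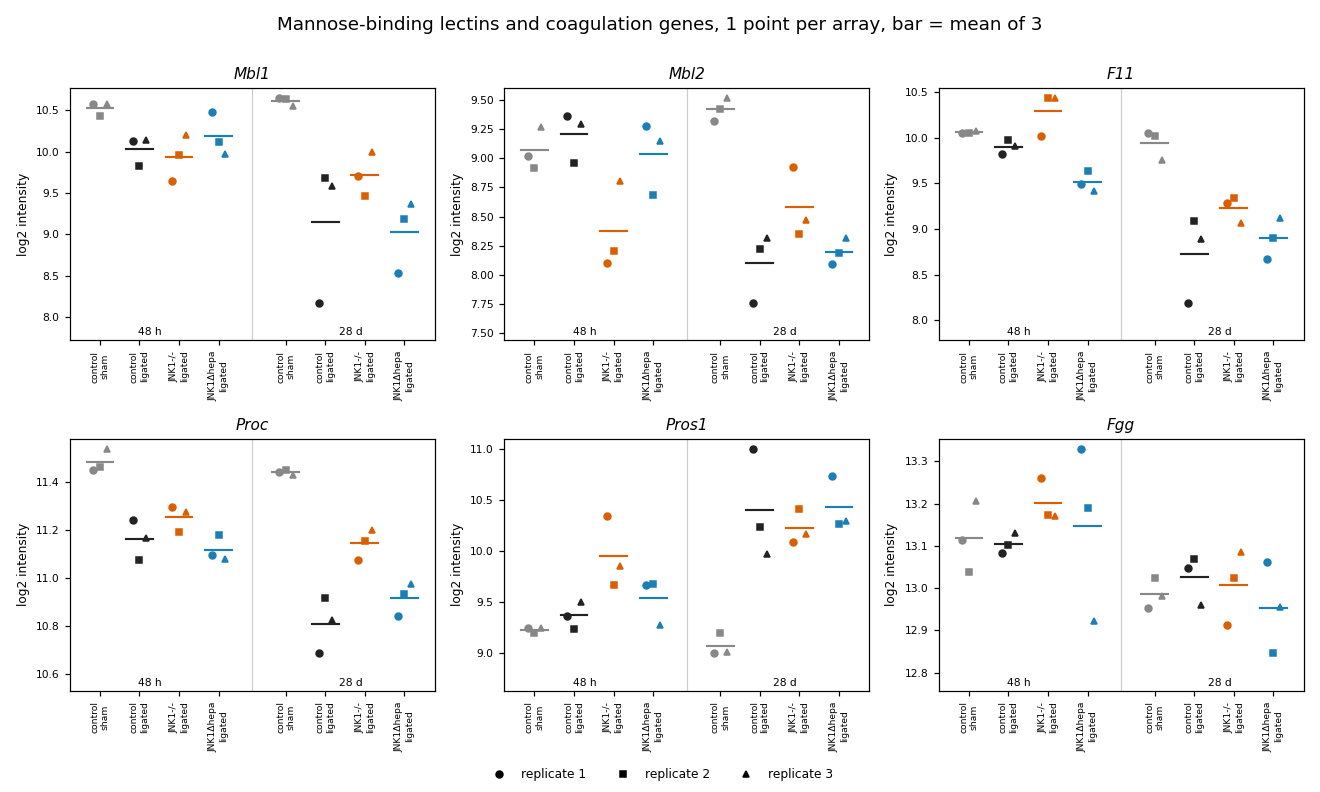
Log2 intensity (vertical axis) of the lectins Mbl1 and Mbl2, the coagulation genes F11, Proc and Pros1, and the fibrinogen gamma chain Fgg on each of the 24 arrays (points, shaped by replicate number), with bars at the means of 3. Ligated controls at 28 d lie below sham for Mbl1, Mbl2, F11 and Proc and above sham for Pros1, while the Fgg groups overlap near 13.

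Loss of JNK1 in all cells changed few of the members after 48 h of ligation. Of 30 members 1 rose and 1 fell against ligated controls, where 1.2% of all symbols rose and 1.11% fell (2.3% in all); 15 members did not overlap between the groups, as 21.3% of all symbols did not. Mbl2 read 8.10, 8.21 and 8.81 in JNK1-/- mice against 9.37, 8.96 and 9.30 in controls, without overlap, a difference of -0.83 ± 0.20 (adjusted p = 0.0283). F5 read 11.58, 11.69 and 11.70 against 11.35, 11.27 and 11.35, also apart, a difference of 0.33 ± 0.07 (adjusted p = 0.0172). Mbl2 did not pass without control replicate 1 or 3 or JNK1-/- replicate 1 or 2 (differences of -0.70 to -0.79), and F5 not without control replicate 2 or JNK1-/- replicate 2 or 3 (0.30 to 0.32). The next members, F12 (-0.27 ± 0.08, adjusted p = 0.0694) and Cfi (0.30 ± 0.09, adjusted p = 0.0878), did not pass.

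After 28 d 1 member passed the test between JNK1-/- and control livers, Proc, which was higher in the mutant. Proc read 11.08, 11.15 and 11.20 in JNK1-/- mice against 10.69, 10.92 and 10.83 in controls, without overlap, and both were below the 28 d sham arrays at 11.43 to 11.45. The difference was 0.33 ± 0.07 (adjusted p = 0.0353), and 0.43% of all symbols rose in this comparison (0.627% in either direction). Of the 30 members, 26 had a positive difference, with a median of 0.31, and 18 had an unadjusted p under 0.05, as 12.4% of all symbols had. In 16 members the groups did not overlap, as in 12.7% of all symbols. Without ligated control replicate 1 the median was 0.17, 26 were positive (C9 turned to just below 0 and Pros1 to above it), and none was called. Proc then differed by 0.27 (adjusted p = 0.133). It also missed the threshold without control replicate 3 or any 1 of the JNK1-/- arrays, at differences of 0.31 to 0.37. With the arrays centred on their medians, the share of rises among all calls was 82.4% in place of 68.6%.

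The pore genes gave the largest fitted differences at 28 d, none of which passed. C8a read 10.87, 10.73 and 11.53 in JNK1-/- mice, a difference from controls of 1.04 ± 0.62, and C9 read 11.47, 11.26 and 11.79, a difference of 0.79 ± 0.42. Both groups overlapped, and without ligated control replicate 1 the differences were 0.06 and -0.00. C8b read 11.35, 11.31 and 11.30, above every ligated control array and below every sham array, a difference of 0.32 ± 0.10 (adjusted p = 0.178) and of 0.25 without that array. F11 read 9.29, 9.34 and 9.07 (0.51 ± 0.17, adjusted p = 0.208), a difference of 0.24 without that array. Serpinc1 (0.31 ± 0.07, adjusted p = 0.069) and F13b (0.35 ± 0.10, adjusted p = 0.118) came nearest to the threshold after Proc, and differed by 0.25 and 0.40 without that array, again not passing.

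**Figure D4:**
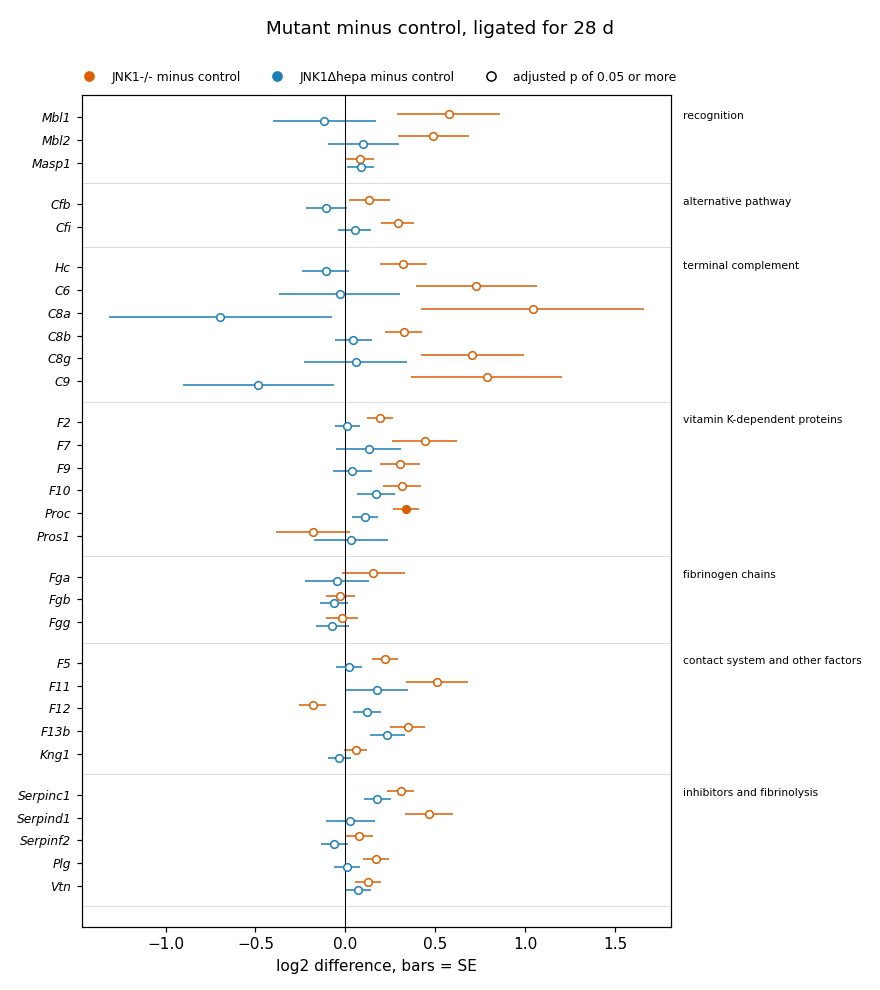
Mutant minus control difference (log2, horizontal axis) after 28 d of ligation for each of the 30 measured members (vertical axis, grouped by role), for JNK1-/- and JNK1Δhepa mice; points are fitted differences and bars are standard errors. The JNK1-/- points lie to the right of 0 for 26 members and the filled point, Proc, is the one that passed, while both comparisons use the same 3 control arrays.

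Hepatocyte deletion of JNK1 called no member at either time by limma. At 48 h the JNK1Δhepa arrays gave 0 calls among members and among all symbols (0%), and 1 member with an unadjusted p under 0.05, as 3.23% of all symbols had. At 28 d they gave 0 members called, where 0.228% of all symbols were, and 2 with an unadjusted p under 0.05, as 14.9% of all symbols had; centring moved the share of rises among all calls from 53.5% to 76.9%. The median member differed by 0.03 at 28 d. C8a read 7.56, 10.01 and 10.34 (-0.70 ± 0.62 against controls) and C9 read 9.43, 10.74 and 10.54 (-0.48 ± 0.42), both overlapping the controls. Each of these genes was lowest on replicate 1, the array that reads like a control for Mapk8.

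Leaving out 1 array changed this. Without ligated control replicate 1, C8a (-1.68, adjusted p = 0.0362) and C9 (-1.27, adjusted p = 0.00598) were lower in JNK1Δhepa than in control mice, with 10.5% of all symbols called. That array was singled out by its low values in the pore genes, while the JNK1Δhepa array low in them was kept. The choice itself moves both differences downward, so this fit cannot decide whether the genotypes differ. Without both replicates 1, C9 alone was called (-0.87, adjusted p = 0.0123) and C8a was not (-0.81, adjusted p = 0.0519). The C9 values that remain are 11.42 and 11.60 in controls and 10.74 and 10.54 in JNK1Δhepa mice, which do not overlap but are 2 arrays in each group. The arrays left out were chosen by the pore genes, C9 among them.

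Set directly against each other, the 2 mutants differed in 2 members at 48 h. F11 read 10.02, 10.43 and 10.43 in JNK1-/- and 9.49, 9.64 and 9.41 in JNK1Δhepa mice, without overlap, a difference of 0.78 ± 0.17 (adjusted p = 0.0206). F5 was higher by 0.27 ± 0.07 (adjusted p = 0.0437), at 11.58, 11.69 and 11.70 against 11.41, 11.40 and 11.34. Both were higher in JNK1-/- mice, where 1.2% of all symbols were (2.44% in either direction). F11 did not pass without JNK1-/- replicate 2 or 3 or JNK1Δhepa replicate 1 or 3 (0.71 to 0.77), and F5 missed the threshold without each of the 6 arrays in turn (0.25 to 0.31).

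At 28 d the direct comparison called no member by limma, where 0.962% of all symbols were called, and 16 had an unadjusted p under 0.05, as 17.1% of all symbols had. The difference was positive, higher in JNK1-/-, for 27 of 30 members, with a median of 0.21; 21 members did not overlap between the 2 groups, as 26.4% of all symbols did not. C8a differed by 1.74 ± 0.62 (adjusted p = 0.158) and C9 by 1.27 ± 0.42 (adjusted p = 0.131), and the lowest JNK1-/- array was above the highest JNK1Δhepa array in both. Without both replicates 1, 2 members passed: C8a at 0.87 (adjusted p = 0.0463) and C9 at 0.87 (adjusted p = 0.00851). Those arrays were left out because of their low values in the pore genes, C8a and C9 among them. Without ligated control replicate 1 alone, which enters this comparison only through the shared spread, 7 members passed, with 6.43% of all symbols called. F12 had the opposite sign, with -0.30 ± 0.08 (adjusted p = 0.062), at 11.34, 11.43 and 11.36 against 11.79, 11.65 and 11.59.

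Whether the mutant effect changed with time was tested as well. For JNK1-/- mice 1 of 30 members passed, where 0.744% of all symbols did (55.7% of those positive, or 78.0% with centred arrays): Mbl2, lower than in controls at 48 h and not at 28 d (8.93, 8.35 and 8.47 against 7.76, 8.22 and 8.31), gave an interaction of 1.32 ± 0.28 (adjusted p = 0.032). It missed the threshold without any 1 of 7 arrays, at values of 1.15 to 1.45. For JNK1Δhepa mice no member passed by limma, where 0% of all symbols were called, and 1 had an unadjusted p under 0.05, as 7.11% of all symbols had.

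Other genes of these pathways did not all move with the members at 28 d of ligation in controls. Of 12 further complement components 4 rose and 4 fell, where 11.7% of all symbols rose and 11.5% fell. Those that rose included the 3 chains of C1q, which macrophages make (C1qc by 1.17, C1qb by 1.01 and C1qa by 0.89), and those that fell included C1rl (-0.70) and C4a (-0.40), whose probe set may also read C4b. Of 8 other fibrinolysis genes 5 rose, among them Plaur, the urokinase receptor (1.88), and Thbs1, thrombospondin 1 (3.29). Of 18 other coagulation genes 5 rose, among them F13a1, the factor XIII subunit of macrophages and platelets (1.93), and 4 fell, among them F8, the gene of factor VIII (-1.07). Of 3 vitamin K cycle genes 2 fell: Ggcx, the carboxylase itself (-1.12), and Vkorc1 (-0.29).

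Secreted acute phase genes mostly rose at 28 d: 7 of 11 did and 1 fell (11.7% and 11.5% of all symbols), with Lcn2 higher by 3.82 and Orm2 by 2.63. Of 12 transcription factor and IL-6 pathway genes 4 rose, among them Stat3 (0.64) and Cebpd (1.62), and 2 fell, Cebpa (-1.07) and Foxa2 (-0.97), both hepatocyte factors. Hnf4a differed by 0.06 and did not pass. In JNK1-/- against control mice at 28 d Cebpa was higher by 0.60 (adjusted p = 0.039). It was the 1 of 12 genes of its list that passed there, where 0.627% of all symbols passed. C1rl was higher in JNK1-/- than in control mice at both times, by 0.49 at 48 h and 0.50 at 28 d (adjusted p = 0.0086 and 0.0145).

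Some markers of liver cell types also passed between ligated and sham controls at 28 d, where 11.7% of all symbols rose and 11.5% fell. At 28 d 4 of 12 hepatocyte markers fell and none rose, with a median of -0.09; Alb differed by -0.06 and Fabp1 by -3.41. The mean of the hepatocyte list was 12.94 to 12.96 on the sham arrays and 12.44 to 12.68 on the ligated control arrays. Fabp1 alone makes up the larger part of that fall. Cholangiocyte markers rose in 2 of 7 (mean level 5.08 to 6.00 in sham, 5.70 to 8.23 ligated), Kupffer cell and macrophage markers in 4 of 8 (8.09 to 8.43, then 8.84 to 9.17), and neutrophil markers in 4 of 5 (3.77 to 4.03, then 5.31 to 6.15). Stellate cell markers rose in 2 of 8 (7.10 to 7.29, then 6.82 to 9.26), platelet markers in 2 of 4 (5.49 to 5.60, then 5.97 to 6.55), and endothelial markers fell in 3 of 7 (8.74 to 8.90, then 8.02 to 8.67). Ligated control replicate 3 was highest in the duct and stellate lists (2.82 and 2.08 above sham). Replicate 1, lowest in the pore genes, was lowest in the hepatocyte mean (-0.51, against -0.33 and -0.26), on which Fabp1 weighs. The part of these cell types in the members' results was not tested.

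Across the 24 arrays some pairs of members varied closely together, and those named first are among the strongest. Pearson's r was 0.97 for Mbl1 with C8g, 0.95 for C8a with C8g and 0.92 for Fgb with Fgg, while Pros1 ran against Mbl1 at -0.89. After removing each group's mean, r was 0.97 for C8g with C9 and 0.96 for Fgb with Fgg. For other pairs it fell, from 0.82 to 0.38 for C8b with C8g and from -0.88 to -0.20 for C8b with Pros1. C8g and C9 were both lowest of their group on ligated control replicate 1 of 28 d, and r without that array was not computed. These values of r are descriptions over arrays that share groups and normalisation. C8a and Hc spread most within the 2 groups of 28 d whose replicate 1 stood apart in the pore genes, while C8b and C6 did not. The mean of the 6 terminal complement genes relative to sham was -0.73, -0.81 and -0.44 on the JNK1-/- arrays of 28 d, beside the ligated control and JNK1Δhepa values given first. All 9 ligated arrays lay below every sham array, and the JNK1-/- range overlapped that of the controls but not that of JNK1Δhepa mice.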

How the data were processed

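The authors deposited log2 intensities per probe set, made with RMA per the submitters' processing notes (version not given in the sources used here); 24 arrays were used, from livers whose RNA had an integrity number above 8 and of which 100 ng was amplified, per the labels' protocols. The number of arrays limits the precision. Of 35556 probe sets in the deposited file, 21218 carried 1 gene symbol, 1881 several and 12457 none in the platform annotation, which can be old; the brightest probe set by mean was kept per symbol. The members, the other gene lists and the tests were chosen with earlier results of these data known.

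Group means were fitted with limma 3.58.1 in R 4.3.3 to 8 groups (16 residual degrees of freedom), with 12 contrasts and Benjamini-Hochberg adjustment over 18820 symbols; the script was tested on simulated data. The median standard error of a difference was 0.129. All members could be named; array values are given for up to 8 called members per direction and comparison with the largest change, and of each other list up to 4 called genes per direction with the smallest adjusted p are named, with Mapk8 as a check of the labels; Alb and Hnf4a were chosen after their values were seen. Deviations from the group means correlated between arrays of the same replicate number above 0.1 for every pair only for JNK1Δhepa against control at 28 d (0.50, 0.24 and 0.16), and the labels do not say what the numbers mark; with the replicate number as a block that comparison still called 0 members. Alternatives were other scalings, array weights, a filter on low values, the mean over probe sets, fits to the compared arrays only, other sham arrays and each array left out.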

Additional observations from a re-analysis of the deposited data

Results flagged for a closer look

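For 5 results the effect of ligation or of the mutation differed between 48 h and 28 d by a test of the difference itself (limma interaction, adjusted p under 0.05). In controls the ligation effect at 28 d minus that at 48 h was -1.46 for Mbl2, -0.90 for C8b, -1.06 for F11 and 1.19 for Pros1. In JNK1-/- against control mice the effect on Mbl2 at 28 d minus that at 48 h was 1.32. The 48 h sham arrays enter the first 4 values, and the 28 d ligated control arrays enter all 5. In controls Mbl2 and C8b held under every alternative, while Pros1 missed the threshold in 13 of 20 and F11 in 10 of 20. Mbl2 in JNK1-/- mice missed it in 8 of 19.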

How the results depend on the processing

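No called member changed direction under any alternative run; the median over members for JNK1Δhepa against control at 28 d, near 0, ranged from -0.03 to 0.07 with each array left out. Of the 34 calls of members in single comparisons, 9 held under every alternative: Mbl2, C8b, F7, Proc, Pros1, F11 and F13b for ligation at 28 d, and Mbl2 and C8b for the difference between the times. Counts of members called stayed within 1.5 times in 74 of 91 cases that changed a setting or left out both replicate 1 arrays. They did so in 52 of 90 cases that left out 1 array. Both figures include comparisons with 0 calls in the report, where 0 calls again count as the same. JNK1-/- against control at 28 d, 1 in the report, gave 0 with quantile normalization, 3 with median centring, 3 with array weights, 2 with the replicate block, 0 in a fit to only the arrays compared and 0 without both replicate 1 arrays (an alternative added after seeing the data). Array weights gave 5 for JNK1-/- against control at 48 h, 2 for JNK1Δhepa against control at 28 d, and 5 and 4 for the mutants against each other at 48 h and 28 d. Fits to only the arrays compared have fewer residual degrees of freedom. They gave 7 for ligation at 28 d, where Mbl1, Hc, C6, C8a, C8g and C9 were among the members no longer called. They gave 2 for its difference between times, and 0 for JNK1-/- at 48 h, for the mutants at 48 h and for the JNK1-/- effect by time. For ligation at 48 h they no longer called F5 and F13b, and called Mbl1, C8g and C9 in addition. Quantile normalization gave 14 for ligation at 28 d, without C8a, F2, F9, F10, F5 and Plg. Without both replicate 1 arrays JNK1Δhepa against control at 28 d gave 1 and the mutants at 28 d gave 2. The cause was not tested for the other changes. The replicate block moved no other count of calls by over 1.5 times.

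With each array of the groups compared left out, the counts ranged from 15 to 20 for ligation at 28 d, from 1 to 4 at 48 h and from 2 to 5 for their difference; from 0 to 3 and from 0 to 1 for JNK1-/- at 28 d and 48 h and from 0 to 2 for its difference; from 0 to 2 and from 0 to 0 for JNK1Δhepa at 28 d and 48 h, and 0 for its difference; from 0 to 1 and from 0 to 0 for the mutants against each other at 48 h and 28 d (7 at 28 d without ligated control replicate 1, which is in neither group); and 0 between the sham groups. With 3 arrays per group the median standard error was 0.129 for a difference and 0.183 for an interaction.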
